A study of Mus musculus with 378 samples.

Results

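The cytoplasmic ribosomal protein genes are 86 of the 23420 genes in the expression table. They were chosen by symbol alone: Rpl or Rps followed by a digit, Rplp0, Rplp1, Rplp2 and Rpsa, without pseudogene symbols and without the kinases whose symbols start with Rps6k. Of these, 52 carry large-subunit symbols and 34 carry small-subunit symbols. The rule also takes in 8 paralogs and Rps19bp1, which encodes a protein that binds Rps19 and is no ribosome subunit, so 77 members are core subunit genes. The 86 genes lie on 19 chromosomes, with 14 on chromosome 7 and 4 on chromosome X.

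Each ribosome is built from a small subunit, which reads the mRNA, and a large subunit, which joins the amino acids, and nearly every ribosomal protein is present once per ribosome. The P-stalk proteins Rplp0, Rplp1 and Rplp2 form the flexible arm of the large subunit that recruits elongation factors. Many of these mRNAs begin with a C followed by a run of pyrimidines, the terminal oligopyrimidine or TOP tract, through which the kinase complex mTORC1 controls their translation, and T cells enlarge their ribosome pool on activation.

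The libraries came from T cells of B16F10 tumours, a transplanted mouse melanoma, and were made with Smart-seq2, a full-length cDNA method. Mice were C57BL/6, either wild type (WT) or labelled IL27ra KO, that is, lacking a receptor chain for the cytokine IL-27. Among CD8 cells there were 94 WT and 92 KO-labelled single-cell libraries, among CD4 cells 94 of each, and each kind also had 1 population library made from many cells. No label ties a cell to an animal, and every combination of genotype and cell type counts as 1 sample. No test between them was possible, and cells are parts of a sample and not replicates. CD4 identity is given by the titles alone, since the protocol speaks of CD8+ cells. WT CD4 titles hold p3 where the others hold p2, and each group has its own animal word, so such features and the groups cannot be told apart. No age or sex is among the labels used here.

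Cells with at least 1000 genes above 0 were kept, 67 WT CD8, 74 KO-labelled CD8, 79 WT CD4 and 78 KO-labelled CD4, with medians of 2919, 2797, 2307 and 2650.5 genes. Median marker levels followed the titles, with CD8 chains at 9.52 and 9.51 in the CD8 groups and 0.0 in the CD4 groups on the log2 scale. Il27ra, the targeted gene, was above 0 in 26 WT CD8, 39 KO-labelled CD8, 38 WT CD4 and 41 KO-labelled CD4 cells, and at 5.6, 6.52, 8.01 and 6.59 in the population libraries. Among kept single cells it was above 0 no less often in KO-labelled than in WT cells, so these values do not bear out the KO label. Between the population libraries it was higher in KO-labelled CD8 but lower in KO-labelled CD4. Every genotype direction below is therefore between libraries as labelled. The labels do not state which exons the allele lacks, so values for the whole gene cannot decide whether the label is right. Of the kept cells, 22 were at 0 for B2m or for all of Cd3d, Cd3e and Cd3g, genes that T cells use: 11 WT CD8, 3 KO-labelled CD8, 7 WT CD4 and 1 KO-labelled CD4. Results are given with these 22 cells and without them, which leaves 56, 71, 72 and 77 cells.

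The starts of the genes are shown first because the TOP tract, where present, lies there. Of the 86 members, 65 matched a RefSeq gene start by symbol (GRCm38.p6), with 77 starts between them. A tract was counted where a C, followed without a break by at least 4 further C or T bases, lay within 10 bases of the annotated start on the gene's strand. It was present at 41 of 77 member starts (53.2%, 95% exact binomial interval 41.5 to 64.7%) and at 10093 of 32851 starts of all genes (30.7%). For longer and closer tracts both shares were smaller: 22.1% of member starts against 3.15% of all starts held a tract of 8 or more bases within 3 bases of the start. Starts of the same gene share sequence, and an annotated start can differ from the start in use. The rule also counts runs that end before the annotated start. Such runs are not part of an mRNA that begins at that start. The windows below run from 15 bases before the annotated start to its first 15 transcribed bases, with the tract in capitals. The first 5 show long tracts in both subunits, at chr2:39005117-39005146 (minus strand), chr7:109519180-109519209 (plus), chr14:18270972-18271001 (minus), chr4:86857353-86857382 (minus) and chr17:33955651-33955680 (minus).
Rpl35: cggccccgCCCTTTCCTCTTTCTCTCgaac
Rpl27a: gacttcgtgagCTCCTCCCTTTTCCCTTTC
Rpl15: gtgggagaaagCCTTCTTCCTTTCCTCTgg
Rps6: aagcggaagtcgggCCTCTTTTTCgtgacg
Rps18: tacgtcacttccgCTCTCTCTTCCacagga

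The next set holds members whose levels stand apart below, among them the paralog pair Rps27 and Rps27l: Rps2 (chr17:24720048-24720077, plus), Rps27 (chr3:90213634-90213663, minus), Rps27l (chr9:66946071-66946100, plus), Rps19bp1 (chr15:80264292-80264321, minus) and Rps4x (chrX:102189377-102189406, minus). The run marked for Rps27l ends before its annotated start, and Rps27l has a further annotated start with no tract.
Rps2: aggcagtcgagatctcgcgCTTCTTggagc
Rps27: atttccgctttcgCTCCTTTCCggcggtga
Rps27l: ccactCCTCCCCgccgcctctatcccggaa
Rps19bp1: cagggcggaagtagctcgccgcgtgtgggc
Rps4x: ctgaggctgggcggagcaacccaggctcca

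Eef1a1 and Rack1 are not members, but their levels followed the members most closely across cells, as described further down. Eef1a1 encodes the elongation factor that brings aminoacyl-tRNA to the ribosome, and Rack1, listed as Gnb2l1 in the expression table, encodes a scaffold protein on the small subunit. Their windows lie at chr9:78481710-78481739 (minus) and chr11:48800345-48800374 (plus).
Eef1a1: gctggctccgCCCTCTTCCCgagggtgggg
Rack1: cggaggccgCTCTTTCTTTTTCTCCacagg

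Among core genes with a matched start, 34 had a tract by this rule and 23 had none. The median level was 8.57 in those with a tract and 9.69 in those without, as mean log2(FPKM + 1), where FPKM is fragments scaled to transcript length and library size. Rps4x and Rplp0, both among the members of highest level, had no match in this window, which says only that these letters are not there. In cells with B2m and Cd3 the median differences of genes with and without a tract were 0.16 and 0.16 for KO minus WT in CD8 cells and 0.31 and 0.54 in CD4 cells. For CD8 minus CD4 they were 1.3 and 1.09 in WT and 1.19 and 0.92 in KO-labelled cells.

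**Figure D1:**
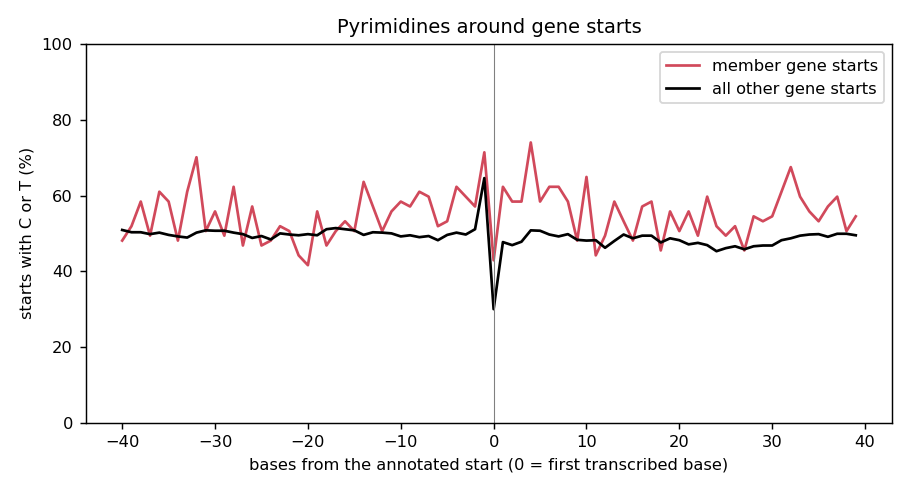
Share of gene starts (%) with C or T at each position, in bases from the annotated start, for member genes and for all other genes. Members are above other genes at each position from 0 to 8 bases, for example 74% against 50.8% at 4 bases.

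The level of ribosomal protein mRNA differed more between CD8 and CD4 cells than between genotypes once the cells lacking B2m or Cd3 were left out. The level of a cell is the mean of log2(FPKM + 1) over the 86 members. In all kept cells it had a median of 9.08 in WT CD8 (lowest 0.26, highest 10.66), 9.31 in KO-labelled CD8 (6.17 to 10.65), 7.66 in WT CD4 (0.47 to 9.73) and 8.26 in KO-labelled CD4 (2.5 to 10.16). The groups overlapped widely, and the 4 lower ends differed more than the medians. Without the cells lacking B2m or Cd3 the medians were 9.19, 9.31, 7.79 and 8.25.

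A low end made of few cells was seen in 3 of the 4 groups. The level was under 5 in 22 kept cells: 12 WT CD8, 0 KO-labelled CD8, 7 WT CD4 and 3 KO-labelled CD4. Of these 22 cells, 17 were also at 0 for B2m or Cd3. Their median summed FPKM was 140000 against 942000 in the other kept cells, and their median number of genes was 1365.5 against 2730.5. The part of RNA quality or input in these low values was not tested.

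**Figure D2:**
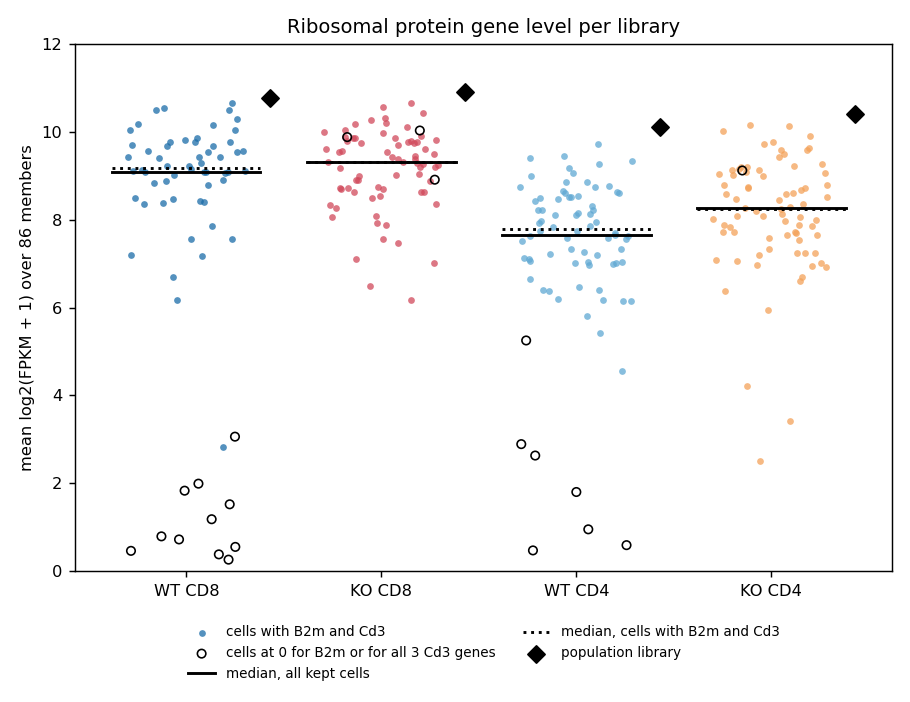
Mean log2(FPKM + 1) over the 86 members in each kept cell (points), by group. Open circles mark the 22 cells at 0 for B2m or all 3 Cd3 genes, lines mark medians and diamonds the population libraries. The open circles of WT CD8 all lie under 5, while the 3 of KO-labelled CD8 lie with the other cells.

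As a share of all FPKM in a cell, a quantity that does not depend on scaling between libraries, the members made up a median of 11.6% in WT CD8, 15% in KO-labelled CD8, 8.59% in WT CD4 and 10% in KO-labelled CD4 cells. Without cells lacking B2m or Cd3 the medians were 13.3, 15.4, 9.39 and 10.1%. The population libraries gave 14.5, 16.8, 10.5 and 13%. CD8 was above CD4 within each genotype, and KO-labelled was above WT within each cell type, in all 3 sets of values. The quartiles overlapped: in cells with B2m and Cd3 they were 9.67 and 16% in WT CD8, 11 and 20.4% in KO-labelled CD8, 6.76 and 11.4% in WT CD4 and 7.96 and 12.9% in KO-labelled CD4. In a population library, fewer cells of a type and less RNA per cell cannot be told apart. The WT CD8 population library had a mean melanoma marker level of 8.62 against 1.33 to 2.2 in the others, and class II antigen presentation genes were at 5.21 there and at 9.55 to 10.97 in the others. The part of these other cells in the population shares was not tested.

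Members spanned a wide range of expression, and paralogs, Rps19bp1 and a few core genes made up its low end. Among the highest, averaged over the 4 groups, were Rpsa (10.98), Rps4x (10.93), Rplp0 (10.85), Rpl19 (10.81) and Rpl4 (10.8) on the log2 scale. Rplp0, Rpl19 and Rpl4 are large-subunit proteins, Rpsa and Rps4x belong to the small subunit, and these 5 values lie within the spread of cells of any of the 5 genes. In cells with B2m and Cd3, Rpsa had quartiles of 11.45 and 12.57 in WT CD8, 11.48 and 12.62 in KO-labelled CD8, 10.6 and 11.73 in WT CD4 and 11.03 and 12.2 in KO-labelled CD4. Over all kept cells, 41 members had a level of 9 or more and 12 were under 5. Only 3 members were above 0 in 90% or more of the cells of each group, and 56 were without the cells lacking B2m or Cd3. An exact 0 in such a table can be a failed estimate, so these genes are said to be listed at 0.

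The lowest 6 were Rpl10l (0.01), Rpl3l (0.01), Rpl39l (0.06), Rps19bp1 (1.06), Rps4y2 (1.13) and Rpl30 (1.28). Rpl3l, a paralog known from muscle, was above 0 in 1 KO-labelled CD4 cell, and Rpl10l and Rpl39l, known from the testis, each in 1 cell of some groups and in none of the KO-labelled CD8 cells. Their parents Rpl3, Rpl10 and Rpl39 were at 11.59, 10.85 and 9.16 in WT CD8 cells with B2m and Cd3. Rpl30, a core large-subunit gene, was above 0 in 11 of 56, 12 of 71, 9 of 72 and 14 of 77 cells in the order WT CD8, KO-labelled CD8, WT CD4 and KO-labelled CD4, yet stood at 7.0 to 7.92 in the population libraries.

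**Figure D3:**
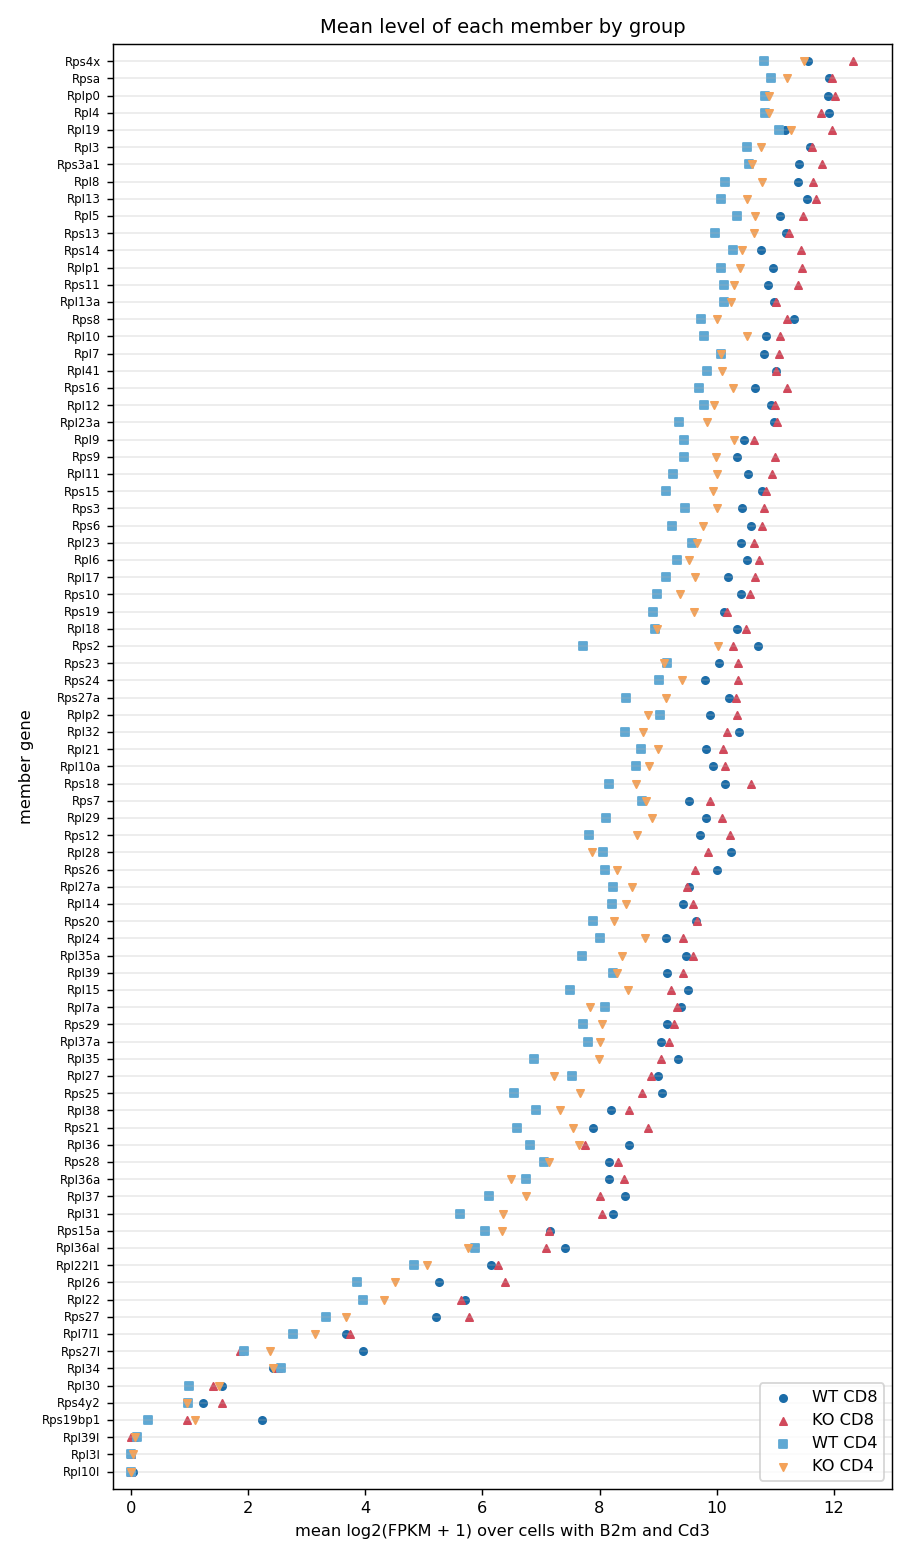
Mean log2(FPKM + 1) of 83 of the 86 members in the 4 groups, over cells with B2m and Cd3, ordered by their mean. For most members the CD8 symbols lie right of the CD4 symbols, while Rps2 in WT CD4 (7.72) and Rps27l in WT CD8 (3.96) stand away from their other groups.

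Close copies bear on single members, because RSEM divides reads between similar transcripts. Rpl34, a core large-subunit gene, was at only 2.12 to 2.61 in the 4 groups, while the copy Rpl34-ps1 was at 7.75 in WT CD8, 9.52 in KO-labelled CD8, 6.64 in WT CD4 and 8.28 in KO-labelled CD4. With the FPKM of both added, the levels were 8.13, 9.62, 7.62 and 8.65. In the KO-labelled CD4 population library Rpl34 was listed at 0 and Rpl34-ps1 was at 11.23. Rps15a was at 6.11, 7.11, 5.57 and 6.34, and its copies Rps15a-ps4 (5.85, 6.98, 5.11 and 5.94) and Rps15a-ps6 (6.65, 7.72, 5.9 and 6.99) were near it. The values of Rpl34 and Rps15a are therefore uncertain as gene levels, and members with other copies may be too.

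The comparison of genotypes in CD8 cells turned on the cells lacking B2m or Cd3. A gene was compared if it was above 0 in 10% or more of cells on at least 1 side, which 83 members were in every comparison (not Rpl3l, Rpl10l and Rpl39l). In all kept cells 81 of 83 had a higher mean in KO-labelled cells, and the median difference, KO minus WT, was 1.61 on the log2 scale. By at least 1, 70 of 83 were higher, where 5.94% of the 9031 genes compared were, and 1 was lower by at least 1, where 3.82% were. The median over those genes was -0.08. Without the 11 WT and 3 KO-labelled cells lacking B2m or Cd3, the members' median was 0.16, with 1 of 83 higher by at least 1, where 1.84% of 9057 genes were, and 2 of 83 lower, where 13.1% were. The median over all genes was -0.29. Between the population libraries the members' median was 0.22, against 0.03 over all genes. The 17 housekeeping genes outside the ribosome, which include B2m itself, had medians of 1.47 with and -0.1 without those cells.

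Rps4x had the largest difference in CD8 cells, 2.58, with means of 9.77 in WT and 12.35 in KO-labelled cells. Without the cells lacking B2m or Cd3 the means were 11.55 and 12.32, a difference of 0.78, with quartiles of 11.69 and 12.7 in WT and 11.92 and 12.98 in KO-labelled cells. Rpl19 (2.47), Rps9 (2.36), Rps16 (2.29) and Rps14 (2.2) were also among the furthest up, and without those cells they were at 0.81, 0.66, 0.54 and 0.68. For each of these 5 genes the difference shrank to under 1 once the cells lacking B2m or Cd3 were left out. Rpl26, a large-subunit protein at the exit of the peptide tunnel, was the 1 member still higher by at least 1, at 1.13 (means 5.26 and 6.38), whereas between the population libraries it was -2.07.

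Rps27l and Rps19bp1 went the other way in CD8 cells, and Rpl30 (0.15), Rpl7l1 (0.26), Rpl36 (0.3) and Rpl34 (0.5) were the next lowest in all kept cells. Without the cells lacking B2m or Cd3 these were at -0.15, 0.06, -0.76 and 0.09, so that Rpl30 and Rpl36 turned in sign. Rps27l, a paralog of Rps27 that is known as a p53 target, had means of 3.41 in WT and 2.1 in KO-labelled CD8 cells, a difference of -1.31, and -2.11 without the cells lacking B2m or Cd3. It was above 0 in 28 of 56 WT CD8 cells (50%, exact interval 36.3 to 63.7%) and 18 of 71 KO-labelled CD8 cells (25.4%, 15.8 to 37.1%), where the interval covers counting error only. The population libraries gave 9.74 in WT and 8.09 in KO-labelled CD8, a difference of -1.65. Its parent Rps27 differed by 1.53 in all kept cells, 0.56 without the cells lacking B2m or Cd3 and 1.02 between the population libraries. Rps27 was above 0 in only 29 of 56 WT and 39 of 71 KO-labelled CD8 cells with B2m and Cd3. In the CD8 population libraries it stood at 10.92 and 11.95, so its single-cell means also follow the share of cells above 0. So in CD8 cells the paralog was lower and the parent higher in KO-labelled cells in all 3 sets of values. The single-cell sets share most of their cells, so they are not separate evidence. The mean melanoma marker level was 8.62 in the WT and 1.58 in the KO-labelled CD8 population library. The part of tumour cells in the population values of Rps27l was not tested. The 20 proliferation genes had a median KO minus WT of -1.67 in the CD8 cells with B2m and Cd3. Their part in the Rps27l value was not tested. Rps19bp1 differed by -0.85, or -1.28 without those cells, and was above 0 in 16 of 56 WT and 10 of 71 KO-labelled CD8 cells.

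In CD4 cells the median genotype difference was smaller than in CD8 cells over all kept cells. It was larger without the cells lacking B2m or Cd3 and between the population libraries. This order depended on scaling: with the cells with B2m and Cd3 rescaled to an equal sum, it was 0.11, against 0.27 in CD8 cells. Rps2 had the largest difference of the members. In all kept cells 81 of 83 members had a higher mean in KO-labelled cells, with a median of 0.88, and 34 were higher by at least 1, where 7.73% of 8176 genes were, and 0 were lower by at least 1, where 0.342% were. The median over those genes was 0.17. Without the cells lacking B2m or Cd3 the members' median was 0.34, with 3 of 83 higher by at least 1 (4.65% of 8024 genes, median 0.09) and 0 lower by at least 1 (1.1% of genes). The population libraries gave 0.39, against -0.12 over all genes.

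Rps2, a small-subunit protein near the mRNA entry, had means of 7.66 in WT and 10.03 in KO-labelled CD4 cells, a difference of 2.37, and 2.31 without the cells lacking B2m or Cd3. In the latter cells its quartiles were 6.82 and 10.29 around a median of 9.42 in WT CD4, and 9.56 and 11.12 around 10.6 in KO-labelled CD4. It was above 0 in 61 of 72 WT CD4 and 73 of 77 KO-labelled CD4 cells. The cells of WT CD4 therefore reached lower, while the upper parts of both groups overlapped. The population libraries gave 9.37 and 10.44, a difference of 1.07. In CD8 cells the Rps2 difference was 0.59 in all kept cells, -0.42 without the cells lacking B2m or Cd3 and -1.15 between the population libraries, so its sign there depended on the cells. The difference between the cell types in this contrast was not tested.

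The other members furthest up in CD4 were Rpl35 (1.74), Rps25 (1.73), Rpl15 (1.66), Rpl10 (1.52) and Rps15 (1.44), at 1.1, 1.13, 0.99, 0.72 and 0.79 without the cells lacking B2m or Cd3. Among those furthest down were Rpl34 (-0.02), Rps4y2 (0.13), Rpl36a (0.15), Rpl7a (0.26) and Rpl27 (0.27). Without those cells these were at -0.14, -0.03, -0.25, -0.26 and -0.3.

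**Figure D4:**
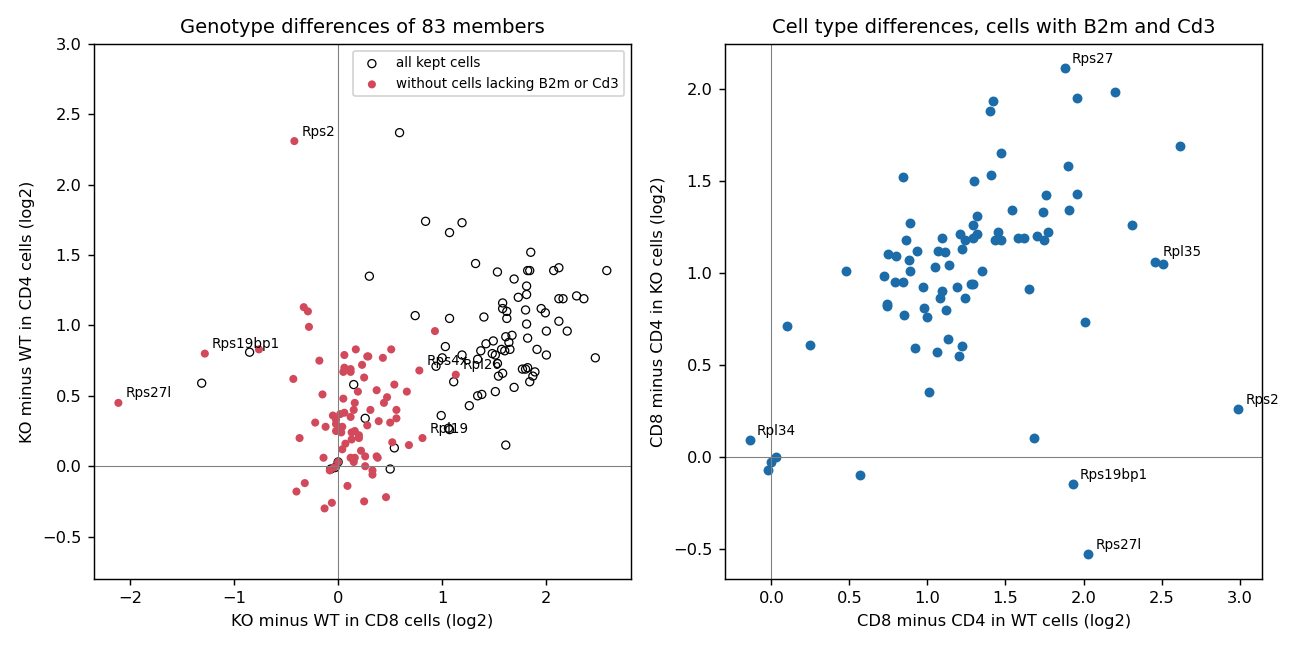
Left, the difference of 83 of the 86 members in mean log2(FPKM + 1), KO minus WT, in CD8 cells (x) and CD4 cells (y), over all kept cells (open) and without cells lacking B2m or Cd3 (filled, with names). Right, CD8 minus CD4 in WT (x) and KO-labelled cells (y) without those cells. In CD8 cells most open points lie further from 0 than the filled ones, and nearly all points on the right lie above 0 on both axes.

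Among kept cells, CD8 cells held higher ribosomal protein mRNA levels than CD4 cells, though in WT the size depended on the cells used. In KO-labelled cells 80 of 83 members had a higher mean in CD8 cells, with a median difference, CD8 minus CD4, of 1.09, and 49 were higher by at least 1, where 7.7% of 8473 genes were and the median was 0.1. None of the 83 was lower by at least 1, where 2.79% were. Without the cells lacking B2m or Cd3 these were 1.09 and 50 of 83 (7.53% of 8342 genes, median 0.09), with 0 lower by at least 1 (3.08% of genes). In WT cells the median was 0.41 in all kept cells, with 16 of 83 higher by at least 1 (14.1% of 8961 genes, median 0.33) and 0 lower by at least 1 (2.08% of genes). It was 1.24 without the cells lacking B2m or Cd3, with 60 of 83 (24.5% of 9037 genes, median 0.48) and 0 lower by at least 1 (1.63% of genes). With every WT single-cell library, also those under 1000 genes, it was -0.46, so the direction in WT depends on the gene minimum. The population libraries gave 0.68 in WT, against -0.02 over all genes, and 0.5 in KO-labelled libraries, against 0.15. Among other genes above 0 in at least 50% of the WT cells with B2m and Cd3, the median was 0.9 and 46.3% were higher in CD8 by at least 1, against a median of 1.26 over the members in that class. The same medians in KO-labelled cells were 0.22 and 1.11. Over all kept cells the medians of such other genes and of members were 0.52 and 0.41 in WT, and 0.22 and 1.1 in KO-labelled cells. The members therefore did not stand above such genes over all kept WT cells. With each kept cell rescaled to an equal sum, the members' median in WT was 0.09, against 0.29 over all genes. The 4 comparisons share their groups and are not independent.

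Both subunits shared the cell type difference. In cells with B2m and Cd3 the median over 46 large-subunit core genes was 1.23 in WT and 1.09 in KO-labelled cells, and over 31 small-subunit core genes 1.29 and 1.1. The P-stalk genes were in the same range: Rplp0 differed by 1.07 in WT and 1.12 in KO-labelled cells, Rplp1 by 0.88 and 1.07, and Rplp2 by 0.84 and 1.52. Rps6, the small-subunit protein phosphorylated downstream of mTORC1, was at 10.58 in WT CD8, 10.77 in KO-labelled CD8, 9.23 in WT CD4 and 9.76 in KO-labelled CD4, differences of 1.35 and 1.01.

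Some members departed from the shared difference. They are those furthest out in all kept cells, given here in cells with B2m and Cd3. In WT cells Rps2 differed by 2.99, Rpl31 by 2.62, Rps25 by 2.51, Rpl35 by 2.46, Rps27l by 2.03 and Rps19bp1 by 1.93, whereas Rpl34 (-0.14), Rpl19 (0.1), Rps14 (0.48), Rpl5 (0.74) and Rps4x (0.74) had smaller differences than the members' median. In KO-labelled cells Rps27 (2.11), Rpl28 (1.98), Rps18 (1.95), Rpl36a (1.93) and Rpl26 (1.88) were among those furthest up. Of these, Rps27 was above 0 in only 39 of 71 CD8 and 30 of 77 CD4 cells, and differed by -0.15 between the KO-labelled population libraries. Rps27l (-0.53), Rps19bp1 (-0.15) and Rpl30 (-0.1) were lower in CD8 there, and Rpl34 was at 0.09, Rpl36 at 0.1 and Rps2 at 0.26.

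Paralog pairs did not share 1 pattern. Rpl22 and Rpl22l1, large-subunit paralogs known to regulate each other in T cells, were both higher in CD8 than in CD4: in cells with B2m and Cd3 Rpl22 was at 5.7 in WT CD8, 5.64 in KO-labelled CD8, 3.96 in WT CD4 and 4.32 in KO-labelled CD4, and Rpl22l1 at 6.15, 6.27, 4.83 and 5.06. The paralog was thus at or above the parent in each group. Rpl36a, at 8.16, 8.41, 6.74 and 6.49, was above Rpl36al, at 7.41, 7.09, 5.87 and 5.75. Rpl7 was at 10.8, 11.06, 10.08 and 10.08, and Rpl7l1, which is known to act in ribosome assembly, at 3.68, 3.74, 2.77 and 3.15. Rps4x was at 11.55, 12.32, 10.81 and 11.49, and Rps4y2 at 1.23, 1.56, 0.97 and 0.95, above 0 in 28, 39, 23 and 29 cells.

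Within a group the members went up and down together from cell to cell. The median Spearman rho over pairs of members, each above 0 in 50% or more of cells, was 0.46 in WT CD8, 0.46 in KO-labelled CD8, 0.34 in WT CD4 and 0.36 in KO-labelled CD4, over 56, 71, 72 and 77 cells with B2m and Cd3, and 0.67, 0.46, 0.45 and 0.36 over all kept cells. These are descriptions: values of 1 cell share its library and depth, and the level itself followed the number of genes detected with rho of 0.59, 0.62, 0.47 and 0.67. The share followed it less, with rho of -0.06, 0.13, -0.26 and -0.06. Rplp0 (mean rho 0.83 over the 4 groups), Rps6 (0.8), Rpl5 (0.79) and Rpl4 (0.78) tracked the members' mean most closely.

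Outside the rule, genes among the most like the members' mean were Eef1a1 (0.81), Gnb2l1 (0.75), Eef1b2 (0.65), Rps15a-ps6 (0.65), Gm15772 (0.65), Tpt1 (0.64) and Eef1g (0.63), as mean rho over the 4 groups of all kept cells. The median over 5190 genes above 0 in at least 20% of kept cells was 0.18, and the median over 81 members among them was 0.67. Each member is part of the members' mean, which raises its rho, and these sets were not matched for the share of cells above 0. Eef1b2 and Eef1g encode subunits of the exchange factor of Eef1a1, and Tpt1 is a TOP mRNA of the textbook list. Unlike those of Eef1a1 and Rack1, the start windows of Eef1b2 and Tpt1 held no tract by the rule used here. Without the cells lacking B2m or Cd3 Eef1a1 was at 0.77 and Gnb2l1 at 0.73.

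The ribosomal share was higher in cells with Tcf7, the transcription factor of naive and stem-like T cells, in all 4 groups. In cells with B2m and Cd3 the median share was 16.4% in the 16 WT CD8 cells with Tcf7 above 0 and 11.3% in the 40 at 0. It was 18.5% in 41 and 11% in 30 KO-labelled CD8 cells, 11.4% in 31 and 7.39% in 41 WT CD4 cells, and 12.9% in 23 and 9.38% in 54 KO-labelled CD4 cells. Among these CD8 cells at 0 for Tcf7, the KO-labelled median share was therefore not above the WT median. Over all kept CD8 cells at 0 for Tcf7 the medians were 10.1% in WT and 11% in KO-labelled cells. The part of Tcf7 in the genotype order of the CD8 shares was not tested. In cells with 2000 to 4000 genes the order was the same: 16.4 against 11.9% in WT CD8, 18.5 against 11.8% in KO-labelled CD8, 11.2 against 6.78% in WT CD4 and 12.8 against 9.15% in KO-labelled CD4. In the CD8 groups the level differed less than the share. Its medians with and without Tcf7 were 9.19 and 9.19 in WT CD8 and 9.5 and 8.95 in KO-labelled CD8. In the CD4 groups the level did not differ less, with medians of 8.22 and 7.56 in WT and 8.79 and 8.02 in KO-labelled cells.

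**Figure D5:**
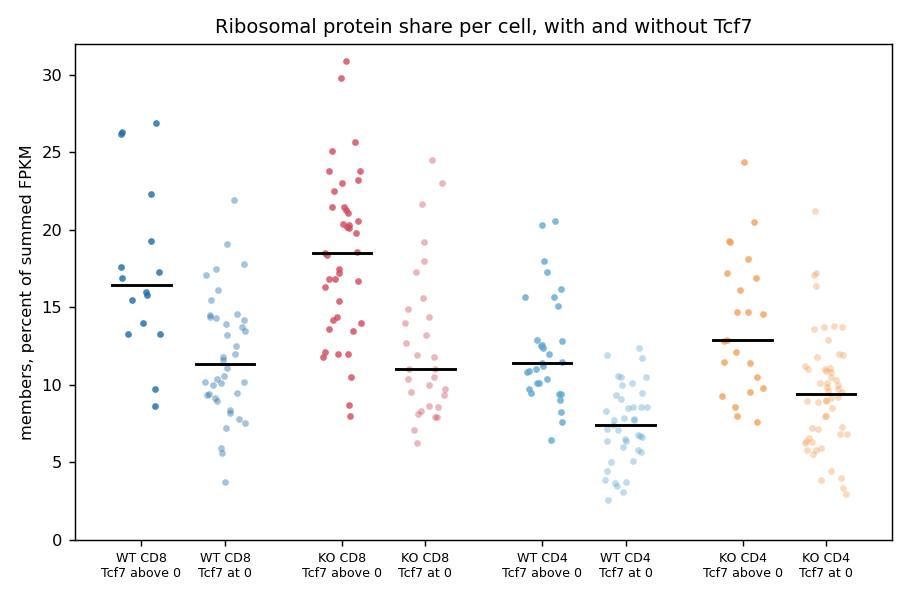
Members' share of summed FPKM (%) in each cell with B2m and Cd3, split by Tcf7 above 0 or at 0, with lines at the medians. In each group the cells with Tcf7 have the higher median, for example 18.5% against 11% in KO-labelled CD8, and the 2 sets of cells overlap.

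Among cells with B2m and Cd3, those with Gzmb or Foxp3 above 0 had lower median shares. With Gzmb, a cytotoxic granule protease, above 0 the median share was 12.3% in WT CD8, 11.9% in KO-labelled CD8, 7.2% in WT CD4 and 8.48% in KO-labelled CD4 cells, against 15.7, 17.6, 10.3 and 11.1% at 0. In all kept WT CD8 cells the order was turned, 12.3 against 9.73%, as the cells lacking B2m or Cd3 were all at 0 for Gzmb. With Foxp3, the regulatory T cell factor, it was 6.78% in 29 and 10.5% without it in 43 WT CD4 cells, and 9.0% in 39 and 11.3% in 38 KO-labelled CD4 cells. Pdcd1, the PD-1 receptor, went with a lower share in WT CD8 (11.7 against 15.7%), KO-labelled CD8 (14 against 17%) and WT CD4 (7.07 against 10.1%), but not in KO-labelled CD4 (10.5 against 9.88%), and in all kept WT CD8 cells the Pdcd1 medians were 11.6 and 11.5%. Mki67, a marker of cycling cells, had no such order: 13.6 against 13.2% in WT CD8, 11.5 against 16.8% in KO-labelled CD8, 9.46 against 9.37% in WT CD4 and 11.3 against 9.85% in KO-labelled CD4. These Mki67 medians rest on only 24 WT CD8, 12 KO-labelled CD8, 7 WT CD4 and 8 KO-labelled CD4 cells above 0. Median genes with and without Mki67 were 4700.5 and 2890.5 in WT CD8 and 3596.5 and 2760 in KO-labelled CD8. They were 2308 and 2365 in WT CD4 and 2592.5 and 2661 in KO-labelled CD4. Cells with Gzmb or Pdcd1 also had more genes detected, 3769 against 2592.5 in WT CD8 for Gzmb. In cells with 2000 to 4000 genes the Gzmb medians were 12.5 against 16.9% in WT CD8, 12.3 against 17% in KO-labelled CD8, 6.68 against 9.46% in WT CD4 and 8.48 against 11% in KO-labelled CD4. A list of 10 naive and memory genes gave rho with the share of 0.38 in WT CD8, 0.6 in KO-labelled CD8, 0.41 in WT CD4 and 0.39 in KO-labelled CD4, over cells that share a library and so a sum to which all shares are relative.

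Other genes of the ribosome pathway are given for cells with B2m and Cd3, where 24.5% of all genes in WT and 7.53% in KO-labelled cells were higher in CD8 by at least 1. Among other genes above 0 in at least 50% of cells, these shares were 46.3 and 17.6%, with medians of 0.9 and 0.22. Fau and Gnb2l1, subunit genes outside the symbol rule, were higher in CD8 by 0.74 and 1.66 in WT cells and by 0.14 and 1.95 in KO-labelled cells. Of 18 elongation and TOP genes, 11 in WT and 7 in KO-labelled cells were higher in CD8 by at least 1, with medians of 1.56 and 0.88, and Btf3, which binds nascent chains, was higher by 2.3 and 0.93. Of 22 initiation genes, 14 and 5 were higher by at least 1 (medians 1.58 and 0.45), with Eif4a1, the mRNA helicase, at 2.79 and 0.93. Of 34 ribosome assembly genes, 15 and, among the 33 compared in KO-labelled cells, 12 were higher by at least 1 (medians 1.0 and 0.54), with the nucleolar protein Nop56 at 2.08 and 2.22 and the rRNA methylase Fbl at 2.42 and 1.21, whereas between the population libraries Fbl was at -0.26 and -1.02. The RNA polymerase I list, 19 genes, had 8 and 1 higher by at least 1 (medians 0.85 and 0.25), and the mTORC1 and Myc list, with 16 genes compared, 2 and 0 (medians 0.58 and 0.18). The 76 mitochondrial ribosomal protein genes, which serve a separate ribosome, had medians of 1.1 in WT and 0.28 in KO-labelled cells.

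For KO minus WT in CD8 cells with B2m and Cd3 the lists had medians of 0.16 for elongation and TOP genes, -0.22 for initiation, -0.13 for assembly, -0.15 for RNA polymerase I, -0.25 for mTORC1 and Myc and -0.67 for the mitochondrial ribosome, where the median over all genes was -0.29. Of the 76 mitochondrial ribosomal protein genes 17 were lower by at least 1 and 1 was higher, where 13.1% of all genes were lower by at least 1. The cytoplasmic members, at 0.16, had the same median as the elongation and TOP list and lay above the initiation, assembly, RNA polymerase I, mTORC1 and Myc, and mitochondrial lists. Single genes departed from their lists: Eif4a2, a helicase paralog of Eif4a1, was higher in KO-labelled CD8 cells by 2.38 and Eif3m, an initiation factor subunit, by 1.2, while Eif3f was lower, at -1.4, and Ubtf, which recruits RNA polymerase I, was at -1.89. Between the population libraries these were 1.31, 0.16, -0.8 and -0.01.

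For KO minus WT in CD4 cells with B2m and Cd3 the medians were 0.32 for elongation and TOP genes, 0.53 for initiation, 0.3 for assembly, 0.29 for RNA polymerase I, 0.33 for mTORC1 and Myc and 0.14 for the mitochondrial ribosome, where the median over all genes was 0.09. Eif4a1 was higher in KO-labelled CD4 cells by 1.85 and Eif3m lower, at -1.63, against -0.24 and -0.33 between the population libraries. The members' median of 0.34 lay among those of the pathway lists.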

How the data were processed

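Values are FPKM as deposited by the authors, and the labels' description names TMM as the scaling between libraries. Bowtie, RSEM and mm10 are named in the submitters' processing notes, and versions and the annotation are not given in the sources used here. RSEM shares reads between similar copies. No molecular identifiers are described. FPKM hides read depth, which was not estimated, so the number of genes above 0 stood in for it. All 378 libraries in 8 groups were mapped, with 0 columns unmapped. No doublet caller was run.

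Cells under 1000 genes above 0 were left out. Differences are of mean log2(FPKM + 1), with a pseudocount of 1, over genes above 0 in 10% or more of cells on at least 1 side (population libraries: 1 FPKM in either). On this scale a difference understates changes of low genes and also follows the share of cells above 0. Shares of cells carry exact 95% Clopper-Pearson intervals for counting error only. Differences of 1 or more were counted, with no test. Named members are the 6 furthest either way in each difference, the 6 highest and lowest, and the paralog pairs. Outside the rule, the 8 most alike genes and, in each list, the 2 genes furthest in CD8 and in CD4 were named. Some of these items are not reported here. Further genes, among them the P-stalk genes, Rps6, Tcf7 and Gzmb, were chosen with results known. Members and lists were chosen with earlier results of these data known. Gene starts came from RefSeq (GRCm38.p6) and positions from GENCODE M21. The procedure was tested on simulated data. Python 3.11.15, numpy 2.4.6, pandas 2.3.3, scipy 1.17.1 and matplotlib 3.10.9 were used.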

Additional observations from a re-analysis of the deposited data

Results flagged for a closer look

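Rps19bp1 differed between genotypes in opposite directions in the cell types: KO minus WT was -0.85 in CD8 cells and 0.81 in CD4 cells on the log2 scale. The difference between the cell types was not tested. Among CD8 cells with B2m and Cd3, 16 of 56 WT and 10 of 71 KO-labelled cells had a value above 0, and among CD4 cells 3 of 72 and 13 of 77 did. Between the population libraries KO minus WT was -0.89 in CD8 and -1.57 in CD4, so the CD4 direction was not shared.

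The 76 single-cell libraries under 1000 genes, left out of the comparisons except where every library is said to be used, still held ribosomal protein signal. The members made up a median of 2.33% of their summed FPKM (quartiles 0.312 and 5.99%, highest 15.2%), with a median of 4 members above 0.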

How the results depend on the processing

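Each result was recomputed under the alternatives that bear on it: cells kept for levels, shares, differences and agreement, scaling for all of these but shares, pseudocounts for levels and differences, and the filter for differences. Those that also rescaled cells to an equal sum or matched genes detected among the cells with B2m and Cd3 were chosen after seeing the data. A value counted as moved past 1.5-fold (0.58 on the log2 scale), or for the tract outside its interval. Among the summary values 20 moved and 1 reversed in sign. Of 528 values of single named members 26.7% moved, and 69 values, from 18 of 48 differences, had the opposite sign. The furthest from 0 of these was Rpl19, CD8 minus CD4 in WT cells, at -1.0 in all kept cells and 0.1 without cells lacking B2m or Cd3. CD8 minus CD4 in WT cells reversed to -0.46 with every single-cell library and moved to 1.05 with at least 2000 genes, 1.24 without cells lacking B2m or Cd3 and 1.25 with these also at 2000 to 4000 genes. KO minus WT in CD8 cells was 0.49 with at least 2000 genes, 0.83 at 2000 to 4000 genes, 0.36 as the difference of log2 of mean FPKM plus 1, 0.16 without cells lacking B2m or Cd3, and without them 0.27 rescaled and 0.19 at 2000 to 4000 genes. KO minus WT in CD4 cells was 0.11 without them and rescaled. The level in WT CD8 was 8.36 with every library, and without the paralogs and Rps19bp1 levels were 9.81, 10.18, 8.38 and 9.01 in WT CD8, KO-labelled CD8, WT CD4 and KO-labelled CD4. Pair rho with every library was 0.7 in KO-labelled CD8 and 0.57 in KO-labelled CD4. The tract share of member starts was 33.8% within 3 bases, 79.2% within 25 and 31.2% with at least 7 further bases. Only the cause of the last 3 is plain, since the rule itself was narrower or wider. The cause of the others was not tested. Leaving out a replicate was not possible with 1 sample a group. No paired analysis was possible because library numbers are not shared between groups and no result comes from a test. Members such as Rpl30 are listed at 0 in most cells, and the part of depth in this was not tested.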
